A study of Mus musculus with 17 samples.

Results

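Tumor cells sorted from the lungs of KLG4 mice were compared with tumor cells from KL mice. The comparison rested on 4 of the 17 samples of the series, 2 KL and 2 KLG4 libraries, and on the 13770 of 16410 listed genes that reached 1 RPKM (read counts divided by gene length and by the total of the library) in at least 2 of the 4 libraries. KL mice carried an oncogene allele that Cre switches on, together with floxed Lkb1 (gene symbol Stk11), and KLG4 mice carried the same alleles and a modified Gpx4 allele, Gpx4m, on both chromosomes. In Gpx4m, recognition sites for the Dre recombinase flank the last exons of the gene, and a tamoxifen-dependent Dre lies in the same locus behind a CAG promoter and a stop cassette that Cre removes. Animals of both groups were on a C57BL/6 background, received Ad-Cre through the nose as young adults and later tamoxifen, and were examined 10 weeks after Ad-Cre. The controls thus shared the tumor-forming alleles, the virus and the drug, but not Dre, the added CAG promoter or the other inserted sequence. Ad-Cre was not restricted to a cell type, and the tumor cells were separated by flow cytometry as EpCAM-positive cells without CD45 and CD31. The study gives this gate for these libraries, while its general sorting protocol prints tumor cells as CD45-positive. The study lists a pair of mice per group for this experiment, and the labels number the libraries within a group but do not tie them to animals or say whether they are separate preparations. The p-values therefore measure the spread between these libraries, which may be technical. Both Xist, which silences an X chromosome in female cells, and the Y-linked Eif2s3y were read in each library (6.18 and 4.55 RPKM in KL against 4.38 and 4.17 in KLG4 for Xist, and 7.27 and 9.26 RPKM in KL against 7.52 and 8.15 in KLG4 for Eif2s3y).

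Gpx4 encodes the selenium-containing glutathione peroxidase that reduces lipid hydroperoxides in membranes. Cells that lose this activity can die by ferroptosis, an iron-dependent death driven by peroxidation of polyunsaturated phospholipids. Cystine import for glutathione synthesis, other lipid-radical traps, iron storage and the storage of polyunsaturated fatty acids in triacylglycerol (TAG) all bear on this death. Tumors of the KL model arise from cells of the alveoli and airways and can hold alveolar, secretory, gastric and squamous programs, which is why genes of these programs were examined beside those of ferroptosis and lipid metabolism. The comparison addresses which genes differ in tumor cells whose Gpx4 is targeted in the animal.

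Of the genes tested, 2843 were higher in KLG4 at an adjusted p under 0.05 (20.6% of all) and 2700 were lower (19.6%). With a change of at least 2-fold as well, 2254 were higher (16.4%) and 969 were lower (7.04%). Genes that pass the adjusted p are said below to have risen or fallen, or to be called. Every count of list genes is to be read beside the 20.6% higher and 19.6% lower of all genes tested. Large changes were mostly increases, with 858 genes called at 8-fold or more higher and 41 at 8-fold or more lower. The KLG4 libraries were shallower, at 17646493 and 15920195 counted reads against 36616982 and 30244654 in KL, and mitochondrial genes with their nuclear copies took 14.8% and 14.7% of reads against 7.38% and 8.26%. The KLG4 libraries also lay very close to each other: the median absolute log2 difference between replicates was 0.12 in KLG4 and 0.26 in KL, and the chi-square statistic per gene was 3.28 and 60.4. When the KLG4 libraries were averaged into 1 sample, 1923 genes were called, 1581 higher and 342 lower, and 1921 of these were among the 5543. Counts for gene groups are therefore given with this stricter count beside them (in the same order of direction), and of the 231 called genes named below, the 107 that were no longer called then are given with each group. In 32.5% of all genes tested the lowest KLG4 level exceeded the highest KL level, and in 42.2% the highest KLG4 level was below the lowest KL level, so that groups without overlap were the usual case. Quantile scaling gave 2585 higher and 4130 lower genes, and setting the median level of epithelial adhesion and keratin genes equal in all libraries gave 9069 higher and 249 lower, so a decrease of up to about 2-fold depends on the scale. The median log2 fold change of all genes was -0.09 as deposited, -0.25 under quantile scaling, 0.02 relative to reads outside mitochondrial genes and 0.95 on the epithelial scale.

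**Figure D1:**
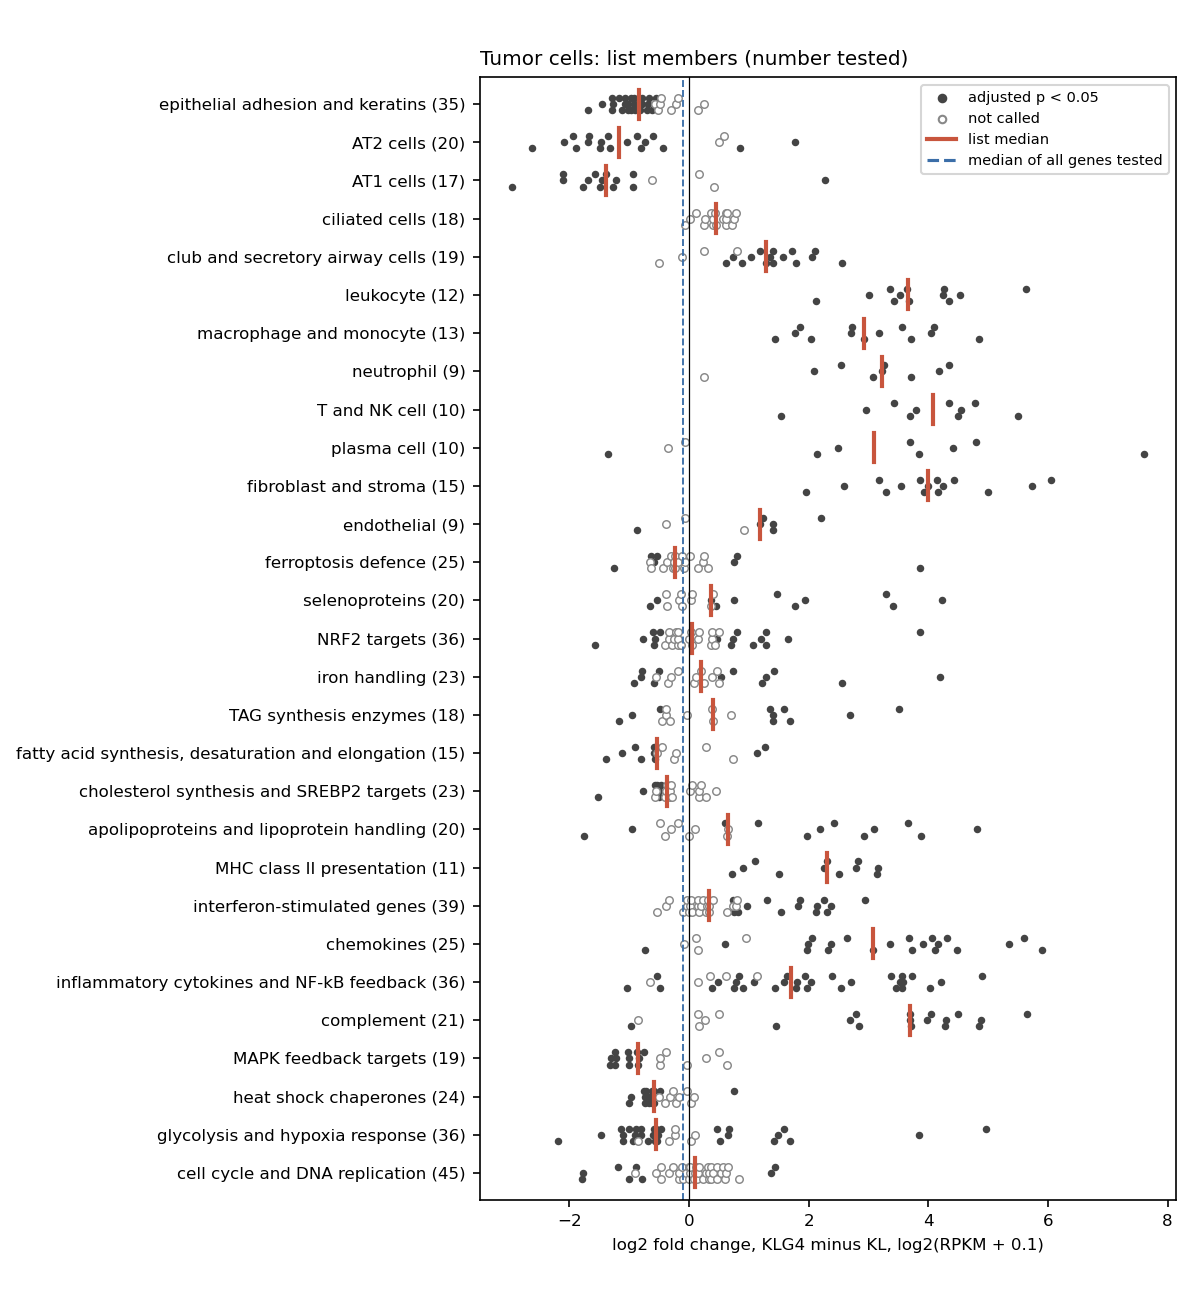
Each row holds the tested members of a gene list, with their number, and the x axis gives the log2 fold change, KLG4 minus KL, on the log2(RPKM + 0.1) scale. Filled points passed an adjusted p under 0.05, open points did not, the red bar is the list median and the dashed line is the median of all genes tested (-0.09). Leukocyte, stroma, chemokine and complement genes lie far to the right, and epithelial adhesion, AT2, AT1, MAPK feedback and heat shock genes lie to the left.

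The targeted gene was read first. Gpx4 (chromosome 10, 80047166 to 80056439, plus strand, GRCm38) was at 94.95 and 76.8 RPKM in KL against 56.4 and 61.9 in KLG4, means of 85.9 ± 12.8 and 59.1 ± 3.88 RPKM (SD, n = 2). Both KLG4 libraries lay below both KL libraries, as in 42.2% of all genes, and Gpx4 transcripts were 1.45-fold lower, not near 0. This is a log2 fold change of -0.53 ± 0.15 SE (adjusted p 0.036). Reads were counted over all exons, so that the value includes exons the recombination leaves in place and Gpx4 transcripts of any other cells in the sort. Tumor macrophages of the series (TRMs and MDMs) are in tables normalized apart and were not tested here. Gpx4 was at 89.8 and 88.2 RPKM in KL TRMs against 53.8 and 57.0 in KLG4 TRMs. In MDMs Gpx4 was at 44.9 and 71.3 RPKM in KL against 93.6 and 97.7 in KLG4. The Gpx4 call was lost under 7 of the 16 alternatives, among them each fit that averaged the KLG4 libraries or left 1 of them out, and held under 8. Relative to the epithelial genes the sign turned and Gpx4 was called higher in KLG4, with a log2 fold change of 0.54 (adjusted p 0.020). Gpx4 was no longer called with the KLG4 libraries averaged.

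Among the 26 other tested genes within 250 kb of Gpx4, 5 rose and 7 fell, beside 20.6% and 19.6% of all genes tested, and the median log2 fold change was -0.22. Palm and Sbno2 had the largest changes in this window. Sbno2, a transcriptional coregulator gene that ends 1.0 kb beyond Gpx4 on the opposite strand, was at 14.5 and 17.8 RPKM in KL against 109 and 112 in KLG4 (log2 fold change 2.78 ± 0.14 SE, adjusted p 2.5e-04). Stk11, the floxed tumor suppressor kinase gene 59.4 kb away, was at 25.9 and 25.8 RPKM in KL against 61.6 and 61.6 in KLG4, the groups not overlapping, as in 74.7% of all genes (log2 fold change 1.25, adjusted p 9.0e-04). Palm, 226.3 kb away on the other side, had a log2 fold change of 2.87, and Hmha1, a gene of blood cells, of 0.98. Polr2e, an RNA polymerase subunit gene 7.4 kb upstream of Gpx4, fell by 0.66 on the log2 scale, and Cnn2, R3hdm4 and Misp fell as well (-1.14, -1.19 and -1.15). Abca7, Arid3a and Wdr18, which lie between Palm and Gpx4, were not called. The end of Stk11 overlaps that of Cbarp, which rose as well (0.68), and the libraries were not directional, so that reads of the overlap cannot be assigned to either gene. Hmha1, Polr2e and Cbarp were no longer called with the KLG4 libraries averaged.

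**Figure D2:**
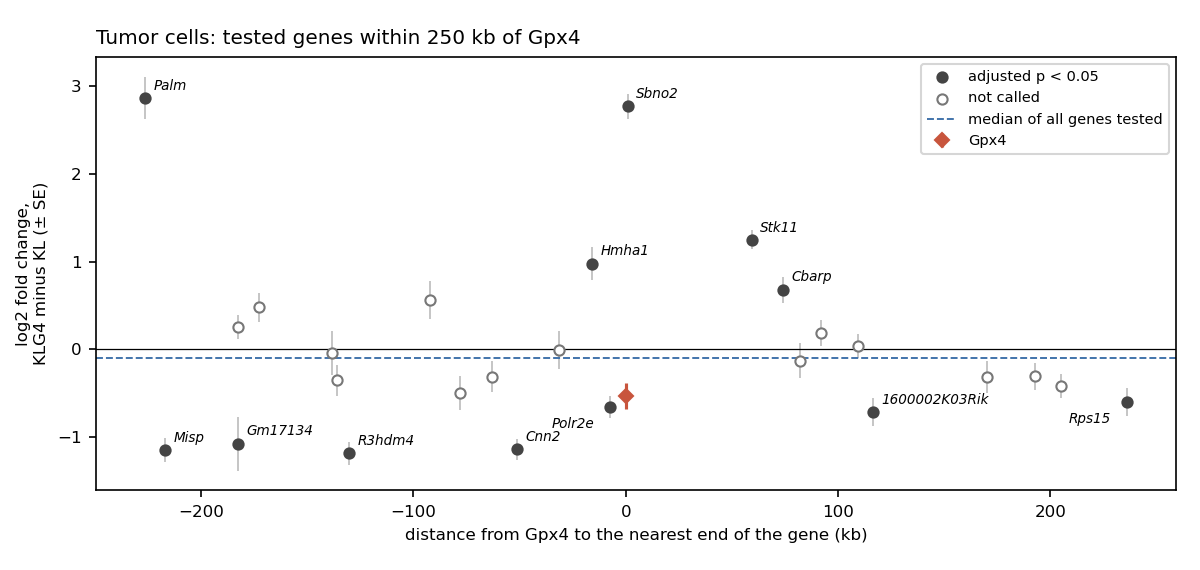
Log2 fold change, KLG4 minus KL, with its standard error, of Gpx4 and the 26 other tested genes within 250 kb of it, against the distance in kb from Gpx4 to the nearest end of each gene. Sbno2 (2.78) next to Gpx4 and Stk11 (1.25) lie above 0, whereas Gpx4 itself (-0.53, red diamond) and Polr2e lie below it, and filled points passed an adjusted p under 0.05.

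The genes of the gate proteins differed between the groups. Epcam, the adhesion gene whose protein the gate requires, was at 638 and 419.8 RPKM in KL against 215 and 211 in KLG4, a log2 fold change of -1.28 (adjusted p 0.0073). Ptprc, which encodes CD45, was at 0.834 and 2.06 RPKM in KL against 26.7 and 27.4 in KLG4, 18.7-fold higher (4.26, adjusted p 0.0011). Pecam1 (CD31) was at 2.23 and 1.17 RPKM in KL against 3.72 and 4.18 in KLG4 and Itga4 (CD49d, a stromal and leukocyte integrin) at 0.195 and 0.324 RPKM in KL against 4.03 and 3.58 in KLG4. For each of these genes the groups did not overlap, as in 74.7% of all genes. Of the 12 leukocyte markers, 12 rose in KLG4 and 12 also with the KLG4 libraries averaged; their summed level was 21.7 and 31.6 RPKM in KL against 322 and 325 in KLG4. In bulk libraries a change in the share of a cell type and a change in RNA per cell cannot be told apart. This holds for each gene group below. Epcam and Pecam1 were no longer called with the KLG4 libraries averaged.

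Epithelial genes were read at high levels in both genotypes, but lower in KLG4. The 36 genes for epithelial adhesion and keratins summed to 9906 and 7669 RPKM in KL against 4379.6 and 4414 in KLG4; of 35 tested, 26 fell and 0 rose (1 fell with KLG4 averaged, 6 higher and 1 lower on the epithelial scale), and the median log2 fold change was -0.83, or 0.22 on the epithelial scale. That scale sets the median level of this same list equal, so that its counts and median for the list are largely fixed by construction. Krt8, a keratin of simple epithelia, was at 2747 and 2187 RPKM in KL against 1324 and 1287 in KLG4, and Cdh1, which encodes E-cadherin, at 220.0 and 217 RPKM in KL against 122 and 119 in KLG4. F11r, a tight junction gene, was at 83.1 and 63.5 RPKM in KL against 31.98 and 32.4 in KLG4. In these genes both KLG4 libraries lay below both KL libraries, beside 42.2% of all genes. The list spanned -1.69 for Cldn18, a tight junction gene of the alveoli, to 0.25 for Ovol1, a repressor of mesenchymal genes that was not called. Krt8, Cdh1 and F11r were no longer called with the KLG4 libraries averaged.

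Most markers of several other lineages rose. For fibroblasts and stroma, 15 of 15 genes rose (14 with KLG4 averaged), and the sum went from 29.8 and 45.2 in KL up to 518 and 521 RPKM in KLG4. Dcn, a matrix proteoglycan gene of fibroblasts, was at 3.15 and 4.57 RPKM in KL against 209 and 203 in KLG4, and Col1a1 at 1.84 and 2.6 RPKM in KL against 33.3 and 33.2 in KLG4. Macrophage and monocyte genes rose in 13 of 13 cases (12 with KLG4 averaged), with a sum of 35.1 and 47.4 RPKM in KL against 300.5 and 304 in KLG4. C1qa, a complement gene of macrophages, was at 1.31 and 2.03 RPKM in KL against 28.9 and 27.96 in KLG4. Neutrophil genes rose in 8 of 9 cases (7 with KLG4 averaged, sum 630.0 and 600.1 RPKM in KL against 2773 and 2697 in KLG4), with the calprotectin gene S100a9 at 166 and 248 RPKM in KL against 1983 and 1886 in KLG4. T and NK cell genes rose in 10 of 10 cases (10 with KLG4 averaged, sum 7.03 and 7.02 RPKM in KL against 79.3 and 85.6 in KLG4) and dendritic cell genes in 7 of 7 (7 with KLG4 averaged). Plasma cell genes rose in 7 of 10 and fell in 1 (7 and 1 with KLG4 averaged), the syndecan Sdc1, which epithelium shares (180.4 and 167 RPKM in KL against 68.4 and 67.1 in KLG4). Of the endothelial genes 5 of 9 rose (1 with KLG4 averaged) and Flt1, a vascular receptor, fell, with a sum of 28.4 and 22.01 RPKM in KL against 31.5 and 34.7 in KLG4. Alveolar macrophage genes rose in 8 of 11 cases (7 with KLG4 averaged) and B cell genes in 3 of 3 (2). The mesothelial and mast cell lists were mixed. Of 3 mesothelial genes, Rspo1, a Wnt pathway agonist, rose (2.41), while Msln, mesothelin (-0.65), and the keratin Krt19 (-0.97) fell, the last of which epithelium shares. Of 3 mast cell and basophil genes, Hdc, the histamine-forming enzyme, rose (3.15), Mcpt8 fell (-2.73) and Kit, the stem cell factor receptor, was not called (-0.09). With KLG4 averaged each of these lists had 1 gene higher and 0 lower. Of 17 genes on the T and NK cell list, 11 were listed. The NK receptor gene Ncr1 and the cytotoxic genes Gzmb, Prf1 and Nkg7 were among the 6 without a value, and the neutrophil marker Ly6g had none either. Some markers were near 0 in KL: 1 gene of the T and NK list, 1 of the plasma cell list and 2 of the B cell list were at 0 in a KL library, and 0 were at 0 in both. Genes below 1 RPKM in both KL libraries entered only through KLG4, so that the filter partly sets these counts. In both KL libraries 1 of 10 T and NK, 1 of 7 dendritic and 0 of 3 B cell genes reached 1 RPKM. For leukocyte, macrophage and stromal genes these were 5 of 12, 7 of 13 and 7 of 15. Of 10 listed B cell genes 3 were tested. The untested Fcer2a was at 0.742 and 1.42 RPKM in KL against 0.715 and 0.548 in KLG4. Flt1, Msln, Krt19 and Mcpt8 were no longer called with the KLG4 libraries averaged.

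**Figure D3:**
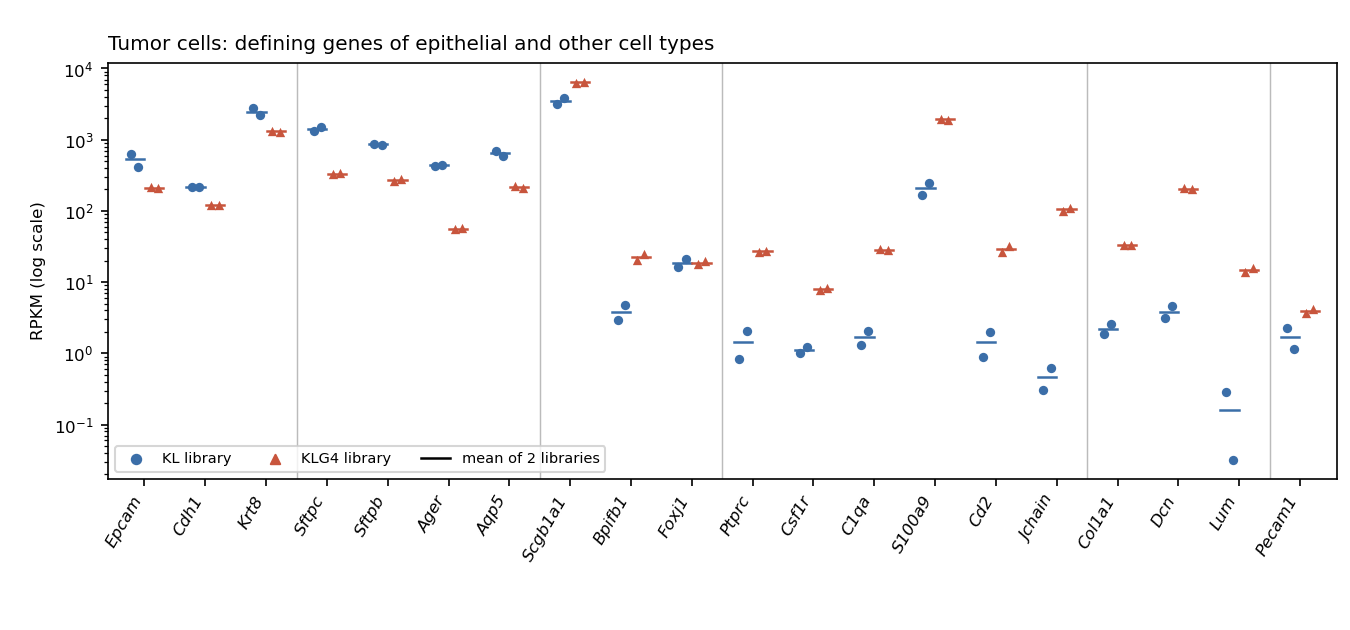
RPKM on a log axis of defining genes in each of the 2 KL (circles) and 2 KLG4 (triangles) libraries, with horizontal bars for the mean of 2; vertical lines separate adhesion and keratin, alveolar, airway, leukocyte, stromal and endothelial genes. The adhesion and alveolar genes are lower in both KLG4 libraries, Foxj1 overlaps between groups, and the leukocyte and stromal genes are higher.

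As deposited, most alveolar genes were lower in KLG4 and most genes of secretory airway cells were higher, and the alveolar counts depended on the scale. Of 20 genes of AT2 cells, the surfactant-producing cells of the alveolus, 16 fell and 2 rose (9 and 1 with KLG4 averaged), and the median was -1.18 on the log2 scale. Sftpb, a surfactant protein gene, was at 880.1 and 833 RPKM in KL against 261 and 279 in KLG4, 3.17-fold lower. Napsa, the aspartic protease that processes surfactant proteins, was at 10.7 and 11.1 RPKM in KL against 2.599 and 2.95 in KLG4 and Ctsh, a cathepsin with the same task, at 161 and 155 RPKM in KL against 40.8 and 43.9 in KLG4. Lamp3, of the lamellar bodies that store surfactant, was at 58.6 and 85.2 RPKM in KL against 21.3 and 22.4 in KLG4. The groups did not overlap for any of these, as in 74.7% of all genes. Exceptions were Lyz2 (214 and 269 RPKM in KL against 796 and 831 in KLG4) and Chil1 (31.6 and 32.03 RPKM in KL against 58.6 and 56.99 in KLG4), which rose and which myeloid cells also express. On the epithelial scale 5 AT2 genes were called higher and 5 lower, and the median was -0.13. Chil1 was no longer called with the KLG4 libraries averaged.

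AT1 cells, the thin gas-exchange cells, had 13 of 17 genes lower and 1 higher (6 and 1 with KLG4 averaged), median -1.39 and -0.32 on the epithelial scale, where 3 were called higher and 5 lower. Ager was at 426 and 448 RPKM in KL against 54.9 and 56.7 in KLG4, the largest decrease under the naming rule (-2.97 ± 0.11 SE, adjusted p 1.2e-04). Aqp5, a water channel, was at 699 and 590.5 RPKM in KL against 222 and 209 in KLG4 and Hopx, a homeodomain cofactor, at 31.1 and 31.6 RPKM in KL against 10.9 and 11.3 in KLG4. The groups did not overlap for either gene, as in 74.7% of all genes. The exception was Pdpn, podoplanin, at 4.52 and 3.97 RPKM in KL against 21.9 and 19.7 in KLG4, a gene that fibroblasts and macrophages also use. Krt7 and Gprc5a fell as well (-1.28 and -1.39), and Cav1 did not pass (2.77 and 2.33 RPKM in KL against 2.65 and 3.08 in KLG4). Krt7 was no longer called with the KLG4 libraries averaged.

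Most secretory airway genes were higher. Of 19 tested, 15 rose and 0 fell (6 rose with KLG4 averaged), and the median log2 fold change was 1.28, or 2.34 on the epithelial scale, where 19 were called higher. Scgb1a1, the main secretoglobin of club cells, was at 3128 and 3848 RPKM in KL against 6332 and 6483 in KLG4 (0.89, adjusted p 0.012). Scgb3a1 was at 203 and 165 RPKM in KL against 647 and 620.4 in KLG4, and Cyp2f2, a cytochrome P450 of club cells, at 42.2 and 58.7 RPKM in KL against 138 and 127 in KLG4. Bpifb1, an airway defence protein, was at 2.95 and 4.699 RPKM in KL against 20.4 and 24.5 in KLG4, and the mucin gene Muc5ac at 0.396 and 1.06 RPKM in KL against 1.91 and 2.44 in KLG4. In these 5 genes the lowest KLG4 library lay above the highest KL library, beside 32.5% of all genes. Clca1, a product of mucous airway cells that is on no list, had the second largest increase under the naming rule (0.564 and 0.455 RPKM in KL against 63.2 and 68.7 in KLG4). Nupr1, Hp and Ltf did not pass. Ciliated cells, whose axonemal genes mark the other main airway lineage, had 0 of 18 genes called in either direction as deposited. Foxj1, their master regulator, was at 16.2 and 21.2 RPKM in KL against 17.8 and 19.9 in KLG4. The ciliated median was 0.44. On the epithelial scale 18 of the 18 were called higher, with a median of 1.51. Scgb1a1, Cyp2f2 and Muc5ac were no longer called with the KLG4 libraries averaged.

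Gastric genes, which KL tumors can express, were mixed. Tff1, a trefoil peptide of the stomach surface, fell (2138 and 1413 RPKM in KL against 699 and 695 in KLG4) and so did Gkn2 (48.2 and 44.1 RPKM in KL against 11.5 and 13.8 in KLG4), whereas Tff2 rose (53.3 and 44.3 RPKM in KL against 109 and 119.7 in KLG4). Hnf4a, the regulator of gut epithelium, was at 14.4 and 9.59 RPKM in KL against 7.39 and 8.07 in KLG4 and was not called. The list gave 2 higher and 4 lower of 13 (2 and 1 with KLG4 averaged, 5 higher and 1 lower on the epithelial scale). Among basal and squamous genes, 3 of 10 rose and 3 fell (0 and 0 with KLG4 averaged, 5 higher and 1 lower on the epithelial scale): Krt5 was low but higher (0.586 and 1.09 RPKM in KL against 3.21 and 2.84 in KLG4), Krt17 and Krt15 rose, and Ivl, a late squamous gene, fell from 68.1 and 26.8 to 9.82 and 9.35 RPKM with the KL replicates far apart. Of 22 lineage regulators, 7 fell and 3 rose (2 and 2 with KLG4 averaged, 13 higher and 2 lower on the epithelial scale). Nkx2-1, the master regulator of lung epithelium, was at 16.02 and 18.8 RPKM in KL against 4.91 and 6.19 in KLG4 (-1.64, adjusted p 0.0018). Hmga2, a chromatin gene of poorly differentiated tumors, was at 3.08 and 1.58 RPKM in KL against 0.368 and 0.584 in KLG4 and Sox17 at 1.38 and 1.75 RPKM in KL against 0.238 and 0.184 in KLG4. Foxa2 fell (-0.56), while Sox2 (4.501 and 6.204 RPKM in KL against 7.604 and 8.31 in KLG4), Sox9 (10.2 and 9.35 RPKM in KL against 9.497 and 9.54 in KLG4) and Cebpa (23 and 20.8 RPKM in KL against 22.2 and 20.4 in KLG4) did not pass. The increases were Cebpd, Id2 and Lmo2, the last a blood and endothelial factor (0.605 and 0.427 RPKM in KL against 3.87 and 4.73 in KLG4). Tff1, Krt5, Krt17, Krt15, Ivl, Hmga2, Foxa2 and Cebpd were no longer called with the KLG4 libraries averaged.

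The largest increase under the naming rule was that of Jchain, the joining chain of secreted antibodies, at 0.304 and 0.631 RPKM in KL against 101 and 112 in KLG4 (7.61 ± 0.30 SE). It was followed by Clca1, by Chil4, a chitinase-like protein of type 2 inflammation (1.202 and 2.17 RPKM in KL against 113 and 117 in KLG4), by Lum (0.2895 and 0.0319 RPKM in KL against 13.98 and 15.9 in KLG4) and by Pi16, of fibroblasts (0.548 and 0.962 RPKM in KL against 50.4 and 51.3 in KLG4). Next came Ccl11, an eosinophil attractant (5.90), the checkpoint receptor Ctla4 (5.81), Dcn (5.73), the retinol dehydrogenase Rdh12 (5.70), the complement component C7 (5.65), the monocyte attractant Ccl2 (5.60) and Gfpt2, of the hexosamine pathway (5.59). The 12 decreases were smaller. After Ager they were the serine proteases Mcpt8 (61.3 and 26.9 RPKM in KL against 6.89 and 5.29 in KLG4), Gzme (119 and 77.2 RPKM in KL against 16.5 and 18.8 in KLG4) and Mcpt1 (1195 and 1167 RPKM in KL against 221 and 216 in KLG4), which bear the names of mast cell and lymphocyte granules. Then followed Atp5k and Ndufa12, of the respiratory chain (-2.27 and -2.09), Krtap17-1 (-2.17), Mhrt, which overlaps a myosin gene so that its reads are uncertain (-2.16), Ivl, Pbp2 (-2.13), the AT1 anchoring protein Akap5 (-2.11) and Tma7 (-2.08). Pbp2 was no longer called with the KLG4 libraries averaged.

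A further 12 increases were taken among genes whose KL tumor cell mean lay above every library of TRMs and MDMs, the tumor macrophages of the series. These tables were normalized apart and served only for the choice. The genes were C1s1 (4.08 and 4.79 RPKM in KL against 102 and 101 in KLG4), Sod3, Col3a1, Igfbp6 (10.95 and 14.7 RPKM in KL against 140.3 and 149 in KLG4), Col6a2, Fmo2, Rarres2, Mgp (138 and 135 RPKM in KL against 1096 and 994 in KLG4), Aebp1, Olfml2b, Col6a1 and Fhl1, with log2 fold changes from 1.94 to 4.49. The choice compared tumor cells with macrophages only, not with other cell types. Col3a1 and Col6a1 are on the stromal list, of which 15 of 15 genes rose, and the part of stromal cells was not tested. The genes tested were also grouped by their level in macrophages. Of 1549 genes whose mean tumor cell level lay below every macrophage library, 51.6% rose and 7.3% fell (median 0.70), and of 3193 genes whose level lay above every one, 7.08% rose and 31.4% fell (median -0.34). Of the 6217 genes in between, 15.9% rose and 16.5% fell (median -0.10), and of the 2811 without a value in both macrophage tables, 29.4% rose and 19.9% fell (median 0.12). This is a description across genes that shares the tumor cell libraries on both sides. Col6a1 was no longer called with the KLG4 libraries averaged.

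Most genes that oppose ferroptosis were not called. Of 25 tested, 3 rose and 4 fell (1 and 1 with KLG4 averaged, 17 higher and 0 lower on the epithelial scale); the median was -0.24 on the log2 scale, and on the epithelial scale the median turned to 0.83. Slc7a11 (chromosome 3, 49892526 to 50443614, minus strand), the cystine importer, was at 1.12 and 2.38 RPKM in KL against 24.6 and 25.8 in KLG4, 14.4-fold higher (3.87 ± 0.34 SE, adjusted p 0.00096). Its partner chain Slc3a2 was at 74.8 and 77.2 RPKM in KL against 79.95 and 73.9 in KLG4 and overlapped between groups. Gclc, the catalytic subunit of the first step of glutathione synthesis, was at 170.5 and 229 RPKM in KL against 129.9 and 133 in KLG4 and fell, and Gclm, Gss and Gsr, of the same pathway, did not pass. Aifm2, which encodes the ubiquinone reductase FSP1, was at 3.06 and 2.86 RPKM in KL against 2.49 and 3.12 in KLG4 (log2 fold change -0.08 ± 0.20 SE). Gch1, of tetrahydrobiopterin synthesis, rose (7.36 and 6.04 RPKM in KL against 10.5 and 12.99 in KLG4), as did Prdx6, a peroxiredoxin that reduces phospholipid hydroperoxides (17.01 and 16.9 RPKM in KL against 28.1 and 28.8 in KLG4). Mboat1, an acyltransferase that builds monounsaturated phospholipids, fell from 16.6 and 14.6 to 6.101 and 6.87 RPKM. Dhodh, the mitochondrial counterpart of Aifm2, was below 1 RPKM in each library and was not tested. Gclc, Gch1 and Prdx6 were no longer called with the KLG4 libraries averaged.

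Genes that promote ferroptosis or respond to it were divided. Of 19 tested, 5 rose and 7 fell (2 and 0 with KLG4 averaged, 14 higher and 0 lower on the epithelial scale), median -0.23 and 0.82 on the epithelial scale. Acsl4, which activates polyunsaturated fatty acids for phospholipids, fell (32.8 and 38.5 RPKM in KL against 23.5 and 23.6 in KLG4). Lpcat3, the next enzyme, was at 2.67 and 2.104 RPKM in KL against 1.27 and 1.69 in KLG4 and was not called. Gnpat and Far1, of ether lipid synthesis, fell (-0.92 and -0.55), whereas Tmem189, which makes plasmalogens from ether lipids, rose (15.04 and 16.02 RPKM in KL against 36.9 and 40.2 in KLG4). Alox5, a lipoxygenase of myeloid cells, and Cybb, the phagocyte oxidase, rose from low levels (0.313 and 0.564 RPKM in KL against 4.65 and 4.804 in KLG4 for the first, 0.508 and 1.799 RPKM in KL against 10.01 and 9.98 in KLG4 for the second). Ptgs2 and Chac1, used as markers of ferroptosis in other work, rose, the first from 34.97 and 42.9 to 60.02 and 60.02 RPKM and the second from 0.767 and 1.07 to 2.46 and 2.19 RPKM. Slc7a11, Alox5 and Cybb moved with the leukocyte markers given above, whose part in these changes was not tested. Acsl4, Gnpat, Far1, Cybb, Ptgs2 and Chac1 were no longer called with the KLG4 libraries averaged.

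Selenoproteins other than Gpx4 rose in part. Of 20 tested, 9 rose and 2 fell, Gpx4 and Selenow (6 and 0 with KLG4 averaged, 17 higher and 0 lower on the epithelial scale), and the median was 0.37. Gpx3, the secreted glutathione peroxidase, was at 4.47 and 3.96 RPKM in KL against 45.2 and 46.1 in KLG4, and Selenop, the selenium carrier of plasma, at 21.4 and 20.3 RPKM in KL against 73.8 and 86.1 in KLG4. Gpx1, the cytosolic enzyme, rose slightly (150.3 and 148 RPKM in KL against 204 and 204 in KLG4), and Txnrd1, thioredoxin reductase, was at 67.7 and 82.8 RPKM in KL against 96.7 and 95.5 in KLG4 without passing. Dio2, Selenom and Selenon had increases of 4.23, 3.28 and 1.78. The machinery that inserts selenocysteine, Secisbp2, Eefsec, Pstk, Sepsecs and Trnau1ap, was not called, while Sephs2, which makes the selenium donor and is itself a selenoprotein, rose (12.4 and 12.2 RPKM in KL against 19.9 and 21.9 in KLG4); with the receptor gene Lrp1 it made 2 of 11 selenium handling genes (1 with KLG4 averaged, 8 higher and 0 lower on the epithelial scale). Among other antioxidant enzymes 9 of 28 rose and 4 fell (4 and 0 with KLG4 averaged, 20 higher and 0 lower on the epithelial scale). The extracellular dismutase Sod3 (1.69 and 1.86 RPKM in KL against 35.6 and 34.4 in KLG4) and the mitochondrial Sod2 (17.6 and 16.1 RPKM in KL against 42.3 and 44.2 in KLG4) were higher, the peroxiredoxins Prdx2 and Prdx3 lower (-0.75 and -0.81), and Sod1 and Cat did not pass. Stromal and macrophage markers rose in the same libraries (15 of 15 and 13 of 13), and their part in these groups was not tested. Selenow, Gpx1, Sephs2, Prdx2 and Prdx3 were no longer called with the KLG4 libraries averaged.

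Of 36 tested targets of NRF2, the regulator of the antioxidant response, 10 rose and 6 fell, with a median of 0.04 (2 and 0 with KLG4 averaged, 32 higher and 1 lower on the epithelial scale). Besides Slc7a11 the increases were led by Gsta3, Aldh3a1, Fth1 and Gstm2 (1.65, 1.28, 1.29 and 1.21), of which Aldh3a1 is also a club cell gene. Nqo1, a widely used reporter of the pathway, was at 1.48 and 1.19 RPKM in KL against 1.17 and 1.62 in KLG4, and Hmox1 at 57.5 and 44.2 RPKM in KL against 69 and 73.5 in KLG4; neither was called. Iron genes gave 7 higher and 5 lower of 23 (2 and 0 with KLG4 averaged, 19 higher and 0 lower on the epithelial scale). Fth1, the ferritin heavy chain that stores iron, was at 1061 and 881 RPKM in KL against 2354 and 2386 in KLG4, whereas Ftl1, the light chain, was at 127 and 105 RPKM in KL against 149 and 153 in KLG4 and did not pass. Tfrc, the transferrin receptor, fell (10.2 and 14.3 RPKM in KL against 7.302 and 6.63 in KLG4), as did Aco1, which encodes the iron sensor IRP1 (9.34 and 13.8 RPKM in KL against 5.72 and 6.13 in KLG4). Slc11a1, the iron transporter of phagosomes, rose (0.877 and 1.14 RPKM in KL against 18.9 and 21.4 in KLG4), and Cp, the ferroxidase ceruloplasmin, also (9.12 and 17.1 RPKM in KL against 28.9 and 29.9 in KLG4). Aldh3a1, Fth1, Gstm2, Tfrc, Aco1 and Cp were no longer called with the KLG4 libraries averaged.

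As deposited, some TAG synthesis genes rose and others fell. Of 18 enzymes tested, 7 rose and 3 fell (3 and 0 with KLG4 averaged, 11 higher and 0 lower on the epithelial scale), median 0.39. Dgat1, an acyltransferase that completes TAG, had the largest increase of the list and was at 2.701 and 4.12 RPKM in KL against 38.3 and 39.6 in KLG4 (3.51 ± 0.22 SE, adjusted p 4.0e-04), and Dgat2 at 1.07 and 0.5898 RPKM in KL against 2.81 and 2.81 in KLG4 (1.70 ± 0.30 SE). Both genes lay above KL in both KLG4 libraries, as did 32.5% of all genes, Dgat2 at low levels. Of the phosphatidate phosphatases before that step, Plpp3 (3.66 and 3.46 RPKM in KL against 23.4 and 23.7 in KLG4), Lpin1 (0.825 and 1.31 RPKM in KL against 2.98 and 2.86 in KLG4) and Plpp1 rose, and Plpp2 fell (10.96 and 7.12 RPKM in KL against 4.31 and 3.51 in KLG4). Of the glycerol-3-phosphate acyltransferases, which take the first acylation step, Agpat9 rose (8.19 and 6.15 RPKM in KL against 19.3 and 18.8 in KLG4) and Gpat4 fell (14.1 and 12.1 RPKM in KL against 9.07 and 9.46 in KLG4). Of the enzymes that then make phosphatidate, Agpat4 rose (2.295 and 2.28 RPKM in KL against 7.51 and 6.63 in KLG4) and Agpat2 fell (6.67 and 5.22 RPKM in KL against 2.39 and 3.77 in KLG4). Gpd1l and Gpam, at the entry of the pathway, did not pass. The study named Gpd1l, Gpam, Agpat4, Plpp1, Dgat2, Srebf2 and Apoe from these libraries, so that their directions are not independent evidence. It reported Gpd1l, Gpam and Srebf2 as upregulated by its own test, whereas they were not called here. The study also reported RT-qPCR and raised histone marks at Dgat2 and Gpd1l, which lie outside these libraries. The macrophage, leukocyte and stromal markers rose in the same libraries (13 of 13, 12 of 12 and 15 of 15), and their part in the TAG increases was not tested. Dgat2, Lpin1, Plpp1, Plpp2, Agpat9, Gpat4 and Agpat2 were no longer called with the KLG4 libraries averaged.

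Most genes of the lipid droplet were not called. Of 20 tested, 6 rose and 1 fell, with a median of 0.07 (4 and 0 with KLG4 averaged, 16 higher and 0 lower on the epithelial scale). Plin2, the main droplet coat protein of non-fat cells, was at 75.8 and 64.01 RPKM in KL against 55.3 and 60.6 in KLG4 and Pnpla2, which encodes the lipase ATGL, at 16.3 and 16.1 RPKM in KL against 13.9 and 14.2 in KLG4; neither passed. G0s2, an inhibitor of that lipase, was at 12.04 and 13.6 RPKM in KL against 133 and 127 in KLG4, 10.1-fold higher (3.34, adjusted p 1.2e-04). Cidec, a droplet fusion protein, and Mgll, a monoacylglycerol lipase, rose from below 1 RPKM, and Lipa, the lysosomal lipase, from 2.26 and 2.43 to 7.02 and 7.32 RPKM. Cidea fell (-0.64). Cidea was no longer called with the KLG4 libraries averaged.

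Fatty acid genes were mixed. In synthesis, desaturation and elongation 7 of 15 fell and 2 rose (0 and 0 with KLG4 averaged, 5 higher and 0 lower on the epithelial scale), median -0.54 and 0.51 on the epithelial scale. Scd1, the desaturase that makes oleate, was at 101 and 140.3 RPKM in KL against 45.1 and 45.2 in KLG4, and Elovl5, an elongase of polyunsaturated fatty acids, at 50.7 and 50.4 RPKM in KL against 27.9 and 29.8 in KLG4. Elovl1, Acly and Scd2 fell too (-1.13, -0.57 and -0.59). The increases were Fads1, a desaturase of polyunsaturated fatty acids (1.35 and 1.91 RPKM in KL against 3.84 and 4.22 in KLG4), and Elovl6 (0.756 and 0.905 RPKM in KL against 1.99 and 1.87 in KLG4). Fasn, the fatty acid synthase, was at 5.35 and 9.84 RPKM in KL against 5.13 and 4.77 in KLG4, with the KL replicates far apart. In uptake and activation Cd36 (55.6 and 78.5 RPKM in KL against 27.8 and 29.9 in KLG4), Acsl5 (111 and 86.95 RPKM in KL against 58.7 and 54.7 in KLG4) and Acsbg1 fell, while Acsl1 (1.34 and 1.54 RPKM in KL against 4.15 and 3.98 in KLG4), Slc27a4 and the lipoprotein lipase Lpl (1.85 and 2.57 RPKM in KL against 7.604 and 8.28 in KLG4) rose; 5 of 15 rose and 4 fell (2 and 0 with KLG4 averaged, 10 higher and 0 lower on the epithelial scale). In mitochondrial and peroxisomal oxidation 5 of 27 fell and 1 rose (0 and 0 with KLG4 averaged, 18 higher and 0 lower on the epithelial scale). Acadl, a long-chain dehydrogenase, fell (73.9 and 70.2 RPKM in KL against 47.3 and 43.3 in KLG4), Slc25a20, the carnitine carrier, rose (2.48 and 2.403 RPKM in KL against 3.95 and 4.33 in KLG4), and Cpt1a, which controls entry, was at 7.94 and 10.6 RPKM in KL against 8.61 and 8.74 in KLG4. The median of the oxidation list was -0.23 and turned to 0.84 on the epithelial scale. Scd1, Elovl5, Elovl1, Acly, Scd2, Fads1, Elovl6, Cd36, Acsl5, Acsbg1, Acsl1, Slc27a4, Acadl and Slc25a20 were no longer called with the KLG4 libraries averaged.

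Cholesterol synthesis had 7 of 23 genes lower and 0 higher (1 lower with KLG4 averaged, 10 higher and 1 lower on the epithelial scale), median -0.37; the sign turned to 0.68 on the epithelial scale. Pmvk, a kinase of the mevalonate pathway, was at 174 and 186 RPKM in KL against 62.8 and 62.3 in KLG4 (-1.52 ± 0.11 SE). Hmgcs1 fell (43.4 and 43.01 RPKM in KL against 30.9 and 29.8 in KLG4), as did Msmo1 (5.25 and 4.78 RPKM in KL against 2.77 and 3.03 in KLG4), Fdft1, Fdps, Idi1 and Cyp51. Srebf2, the regulator of the pathway, was at 5.999 and 7.74 RPKM in KL against 9.69 and 9.07 in KLG4 and was not called. Lipoprotein handling, in contrast, had 10 of 20 genes higher and 2 lower (7 and 1 with KLG4 averaged, 14 higher and 0 lower on the epithelial scale). Apoe, a lipid carrier of macrophages and many other cells, was at 33.4 and 36.5 RPKM in KL against 441 and 446 in KLG4 (12.7-fold). Abca1 (0.651 and 1.46 RPKM in KL against 8.45 and 7.801 in KLG4) and Abcg1 (0.866 and 1.12 RPKM in KL against 5.74 and 5.75 in KLG4), which export cholesterol to such carriers, rose with it, and so did Olr1, a scavenger receptor (1.15 and 2.75 RPKM in KL against 26.1 and 29.3 in KLG4), Pltp and Apod. Clu, clusterin, fell (5380.0 and 4529 RPKM in KL against 2526 and 2547 in KLG4), and Apoc2 fell (4.77 and 5.21 RPKM in KL against 1.81 and 1.08 in KLG4). Of the phospholipase and eicosanoid genes 11 of 24 rose and 5 fell (5 and 0 with KLG4 averaged, 18 higher and 0 lower on the epithelial scale). Alox5ap, which presents arachidonate to Alox5, was at 3.35 and 8.13 RPKM in KL against 79.3 and 76.6 in KLG4, and Ptgis, the prostacyclin synthase, at 0.223 and 0.309 RPKM in KL against 4.81 and 5.48 in KLG4, whereas Ptgs1 (2.88 and 4.49 RPKM in KL against 1.25 and 1.94 in KLG4) and Ptges (22.96 and 16.8 RPKM in KL against 8.84 and 7.05 in KLG4), of prostaglandin synthesis, fell. Apoe, Alox5ap, Abca1 and Olr1 are used by macrophages, whose 13 tested markers all rose in the same libraries; the part of these cells was not tested. Hmgcs1, Msmo1, Fdft1, Fdps, Idi1, Cyp51, Clu, Ptgs1 and Ptges were no longer called with the KLG4 libraries averaged.

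**Figure D4:**
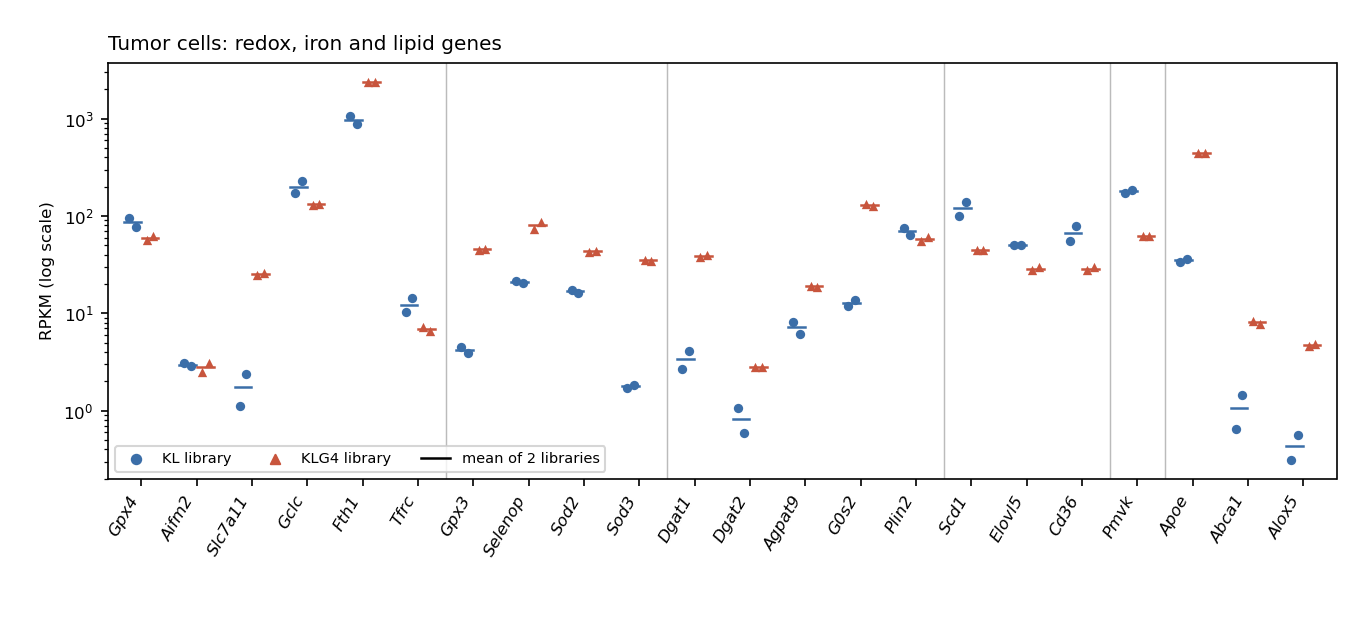
RPKM on a log axis of redox, iron and lipid genes in the 2 KL (circles) and 2 KLG4 (triangles) libraries, with bars for the mean of 2; vertical lines separate ferroptosis and iron, antioxidant, TAG and droplet, fatty acid, cholesterol and lipoprotein genes. Slc7a11, Gpx3, Sod3, Dgat1, G0s2 and Apoe are higher in both KLG4 libraries, Gpx4, Scd1, Elovl5 and Pmvk are lower, and Aifm2 and Plin2 differ little.

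Genes of antigen presentation by MHC class II rose in 11 of 11 cases (8 with KLG4 averaged, 11 higher and 0 lower on the epithelial scale), median 2.31. H2-Ab1 was at 104 and 139.7 RPKM in KL against 562 and 588 in KLG4, H2-Eb1 at 31.4 and 47.4 RPKM in KL against 340.0 and 351 in KLG4 and Ctss, the cathepsin that trims the invariant chain, at 29.3 and 49.6 RPKM in KL against 273 and 271 in KLG4. These genes were also read in KL at lower levels. In the TRM and MDM libraries, normalized apart, H2-Ab1 was at 367 to 3756 RPKM. Macrophage, dendritic cell and leukocyte markers rose in the same KLG4 libraries (13 of 13, 7 of 7 and 12 of 12). Their part in the class II increases was not tested. Among MHC class I and immunoproteasome genes, 12 of 23 rose and 2 fell (5 and 0 with KLG4 averaged, 22 higher and 0 lower on the epithelial scale), median 0.52 and 1.58 on the epithelial scale. H2-K1 was at 327 and 346 RPKM in KL against 384 and 386 in KLG4 and was not called, while Psmb9 (0.627 and 0.732 RPKM in KL against 1.66 and 1.89 in KLG4) and H2-Q7 (3.95 and 3.16 RPKM in KL against 10.1 and 11.5 in KLG4) rose. The promoters of H2-Aa and H2-Eb1 are shown over 60 bases with the Y box of class II promoters, CTGATTGG, in capitals, because both genes rose and share it. In the RefSeq promoters used here (250 bases before to 50 after a start, GRCm38.p6), these letters occur on either strand in 4.1% of 32851 promoters and in 3 of 10 class II list genes with a promoter, and all 3 rose, as did the 7 without it.
H2-Aa, chr17:34287841-34287900, minus strand: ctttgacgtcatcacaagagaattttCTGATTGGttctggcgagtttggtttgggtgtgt
H2-Eb1, chr17:34305779-34305838, plus strand: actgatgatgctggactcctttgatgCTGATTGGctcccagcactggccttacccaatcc
Psmb9 was no longer called with the KLG4 libraries averaged.

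As deposited, interferon-stimulated genes split into a part that rose and a part that was not called. Of 39 tested, 14 rose and 0 fell (8 with KLG4 averaged, 38 higher and 0 lower on the epithelial scale), median 0.33. Rsad2, an antiviral enzyme, was at 0.297 and 0.672 RPKM in KL against 4.37 and 3.98 in KLG4, Isg15, a ubiquitin-like modifier, at 6.79 and 7.61 RPKM in KL against 30.6 and 32.8 in KLG4, and Gbp2, a guanylate-binding protein, at 5.94 and 5.27 RPKM in KL against 28.5 and 25.9 in KLG4. Ifit3 (12.8 and 14.3 RPKM in KL against 15.5 and 18.1 in KLG4) and Oas1a (4.27 and 4.14 RPKM in KL against 4.12 and 4.47 in KLG4), which belong to the same response, were not called. Leukocyte and macrophage markers rose in the same libraries (12 of 12 and 13 of 13), and their part in the increases was not tested. The element of these promoters, searched as GAAA, any 2 bases and GAAA on either strand, occurs in 3.44% of all promoters. It was in 18 of 29 list genes with a promoter, of which 7 rose, and 4 of the 11 without it rose. Rsad2 and Isg15, which rose, and Ifit3, which did not pass, are shown with the element in capitals, in Isg15 as 3 overlapping matches and in Ifit3 as 1 of its 2 matches.
Rsad2, chr12:26456538-26456597, minus strand: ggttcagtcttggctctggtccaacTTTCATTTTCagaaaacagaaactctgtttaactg
Isg15, chr4:156200862-156200921, minus strand: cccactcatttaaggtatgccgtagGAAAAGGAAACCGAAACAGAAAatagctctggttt
Ifit3, chr19:34583348-34583407, plus strand: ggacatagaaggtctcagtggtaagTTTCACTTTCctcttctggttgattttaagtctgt

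Most chemokine and inflammatory cytokine genes rose. Of 25 chemokine genes 20 rose and 1 fell (16 and 0 with KLG4 averaged, 24 higher and 0 lower on the epithelial scale), median 3.07, and of 36 cytokine and NF-kB feedback genes 28 rose and 3 fell (19 and 0 with KLG4 averaged, 34 higher and 0 lower on the epithelial scale), median 1.71. The neutrophil attractants Cxcl2 (98.6 and 178 RPKM in KL against 1368 and 1343 in KLG4) and Cxcl1 (65.5 and 39.4 RPKM in KL against 252 and 258 in KLG4) were high in both groups and higher in KLG4. Ccl2 (0.576 and 0.872 RPKM in KL against 42.9 and 35.5 in KLG4) and Ccl11 were under 1 RPKM in both KL libraries. Cxcl17 and Cxcl16, chemokines of airway epithelium, were at 211 and 272 RPKM in KL against 248 and 273 in KLG4 and 63.1 and 49.4 RPKM in KL against 53.7 and 51.96 in KLG4 and were not called, and Cxcl15, also called lungkine, fell (82.1 and 80.02 RPKM in KL against 45.03 and 52.5 in KLG4). Il1b was at 15.7 and 31.2 RPKM in KL against 417 and 410.2 in KLG4, Il1a at 20.4 and 31.6 RPKM in KL against 259 and 269 in KLG4 and Il6 at 7.24 and 6.06 RPKM in KL against 35.5 and 34.7 in KLG4. In the TRM and MDM libraries, normalized apart, Il1b was at 565 to 3239 RPKM. Leukocyte, neutrophil, macrophage and stromal markers rose in the same KLG4 libraries (12 of 12, 8 of 9, 13 of 13 and 15 of 15). Their part in the chemokine and cytokine increases was not tested. The inhibitors that NF-kB itself induces rose, with Nfkbia at 156 and 161 RPKM in KL against 423 and 435 in KLG4 and Tnfaip3 at 27.1 and 30.4 RPKM in KL against 187 and 187 in KLG4, whereas its subunit Rela was at 23.6 and 24.5 RPKM in KL against 27.98 and 25.3 in KLG4 and did not pass. Il33, an alarmin of epithelium, fell (168 and 129.9 RPKM in KL against 102 and 103 in KLG4). On the epithelial scale Il33 was called higher, with a log2 fold change of 0.54 (adjusted p 0.013). Cxcl1, Cxcl2 and Nfkbia hold the NF-kB letters GGGA, any 2 bases and TTCC near their start and are shown with the match in capitals. In Cxcl1 and Cxcl2 the 2 matches overlap. The letters occur on either strand in 1.47% of promoters, in 4 of 16 chemokine genes and in 5 of 28 cytokine and feedback genes with a promoter, and each of these rose, as did 9 of the 12 and 17 of the 23 without it.
Cxcl1, chr5:90891149-90891208, plus strand: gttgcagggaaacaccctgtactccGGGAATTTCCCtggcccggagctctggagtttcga
Cxcl2, chr5:90903777-90903836, plus strand: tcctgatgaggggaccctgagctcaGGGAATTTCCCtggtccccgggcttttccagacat
Nfkbia, chr12:55492642-55492701, minus strand: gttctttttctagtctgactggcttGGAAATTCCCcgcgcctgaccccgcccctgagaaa
Cxcl15 and Il33 were no longer called with the KLG4 libraries averaged.

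Many genes of other immune and stromal groups rose. Complement genes rose in 15 of 21 cases and fell in 1 (14 and 0 with KLG4 averaged, 19 higher and 0 lower on the epithelial scale), with C3, the central component, at 34.04 and 57.6 RPKM in KL against 691 and 714 in KLG4 and C7 at 0.927 and 2.33 RPKM in KL against 76.1 and 82.2 in KLG4. Cfi, the inactivating protease, fell (6.77 and 7.66 RPKM in KL against 3.78 and 3.51 in KLG4). Among checkpoint and suppressive genes 9 of 22 rose and 5 fell (9 and 1 with KLG4 averaged, 13 higher and 0 lower on the epithelial scale). Cd274, which encodes PD-L1, was at 2.87 and 6.35 RPKM in KL against 48.8 and 50.9 in KLG4, while Nectin2, a ligand of TIGIT on epithelium, fell (49.2 and 45 RPKM in KL against 20.4 and 19.1 in KLG4) and Nt5e, the ectonucleotidase CD73, fell (15.6 and 11.9 RPKM in KL against 7.67 and 7.48 in KLG4). Lysosomal genes rose in 15 of 31 cases and fell in 2 (7 and 2 with KLG4 averaged, 27 higher and 1 lower on the epithelial scale), with Psap at 46.5 and 45.2 RPKM in KL against 119 and 125 in KLG4 and Npc2, which AT2 cells use, lower (212 and 185 RPKM in KL against 78.8 and 80.2 in KLG4). Matrix and invasion genes rose in 20 of 28 cases and fell in 2 (17 and 0 with KLG4 averaged, 25 higher and 0 lower on the epithelial scale). Vim, the intermediate filament of mesenchyme and leukocytes, was at 21.2 and 22.8 RPKM in KL against 347 and 335 in KLG4 and the repressors of epithelial genes Zeb1 and Zeb2 at 0.621 and 0.902 RPKM in KL against 6.37 and 6.299 in KLG4 and 0.733 and 1.28 RPKM in KL against 17.1 and 16.3 in KLG4. Mmp14, a membrane protease, fell (35.7 and 27.4 RPKM in KL against 18.05 and 19.1 in KLG4). The summed leukocyte, macrophage and stromal markers given above were higher in the same 2 libraries, and their part in these groups was not tested. Cfi, Nt5e and Mmp14 were no longer called with the KLG4 libraries averaged.

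Feedback genes of MAPK signalling, which read the activity of the pathway the oncogene drives, had 12 of 19 genes lower and 0 higher, median -0.85. None of the 12 passed with KLG4 averaged, and the median was 0.22 on the epithelial scale, where 5 were higher and 0 lower. Dusp6, a phosphatase of ERK, was at 65.2 and 47.03 RPKM in KL against 23.7 and 23.2 in KLG4, Spry2, an inhibitor of receptor signalling, at 23.5 and 30.7 RPKM in KL against 10.95 and 10.6 in KLG4, and the growth factor Areg at 1655 and 1349 RPKM in KL against 651 and 623 in KLG4. Dusp4 (47.8 and 48.8 RPKM in KL against 44.6 and 49.4 in KLG4), Dusp5 and Fosl1 did not pass. Of the kinases under Stk11 and its partners, 5 of 20 rose and 3 fell (2 and 0 with KLG4 averaged, 16 higher and 0 lower on the epithelial scale), beside 20.6% and 19.6% of all genes tested. Strada, the pseudokinase partner, was at 21.3 and 17.6 RPKM in KL against 8.11 and 8.37 in KLG4, Sik3 at 3.71 and 5.59 RPKM in KL against 10.3 and 9.88 in KLG4 and Prkaa1, an AMPK subunit, at 6.26 and 6.12 RPKM in KL against 5.198 and 5.38 in KLG4, the last not called. Cell cycle genes were mostly not called, with 2 of 45 higher and 6 lower (1 and 0 with KLG4 averaged, 34 higher and 0 lower on the epithelial scale). Mki67 rose (5.74 and 7.07 RPKM in KL against 17.1 and 16.3 in KLG4) while Cdk1 (3.11 and 2.04 RPKM in KL against 0.642 and 0.693 in KLG4) and Ccna2 (7.88 and 6.02 RPKM in KL against 3.78 and 3.6 in KLG4) fell and Top2a (3.13 and 2.597 RPKM in KL against 3.67 and 3.54 in KLG4) and Mcm2 (2.81 and 3.45 RPKM in KL against 3.18 and 3.097 in KLG4) did not pass. Cdkn2a, an inhibitor of cyclin kinases, fell (4.08 and 2.26 RPKM in KL against 0.677 and 0.965 in KLG4), and so did Ccnd1 (44.2 and 58.2 RPKM in KL against 23.9 and 26.5 in KLG4). Dusp6, Spry2, Areg, Strada, Sik3, Cdk1, Ccna2, Cdkn2a and Ccnd1 were no longer called with the KLG4 libraries averaged.

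Heat shock chaperones were lower, with 14 of 24 genes down and 1 up, median -0.59; 0 passed with KLG4 averaged, and the median was 0.48 on the epithelial scale, where 16 were higher and 0 lower. Hspa1a was at 394 and 447 RPKM in KL against 210.5 and 210.1 in KLG4, Hspe1, the mitochondrial cochaperone, at 213 and 157 RPKM in KL against 94.5 and 91.5 in KLG4, and Hsp90ab1 at 3722 and 3558 RPKM in KL against 2296 and 2302 in KLG4. Only Dnajb4 rose among those tested (11.01 and 12.8 RPKM in KL against 20.49 and 19.9 in KLG4), and Hsf1, their regulator, did not pass (5.41 and 5.95 RPKM in KL against 5.22 and 6.94 in KLG4). Hspe1 and Hsph1, which fell, are shown with the heat shock element, searched as GAA, any 2 bases, TTC, any 2 bases and GAA, or its reverse complement, in capitals; in Hspe1 the 2 matches overlap. The element occurs in 0.603% of promoters and in 4 of 18 chaperone genes with a promoter, and those 4 fell, as did 8 of the 14 without it.
Hspe1, chr1:55088035-55088094, plus strand: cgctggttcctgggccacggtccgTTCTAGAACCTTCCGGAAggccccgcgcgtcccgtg
Hsph1, chr5:149636266-149636325, minus strand: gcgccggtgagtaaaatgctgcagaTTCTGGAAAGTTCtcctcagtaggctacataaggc
Hspa1a, Hspe1, Hsp90ab1, Dnajb4 and Hsph1 were no longer called with the KLG4 libraries averaged.

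Stress and metabolic groups were mixed. In the integrated stress and unfolded protein response 8 of 36 genes rose and 3 fell (1 and 0 with KLG4 averaged, 31 higher and 0 lower on the epithelial scale), beside 20.6% and 19.6% of all genes tested. Atf4, the regulator of that response, was at 305 and 216 RPKM in KL against 224 and 229 in KLG4 and was not called. Ddit3, which encodes CHOP, rose (66.8 and 51.2 RPKM in KL against 103 and 96.03 in KLG4), and Ppp1r15a, a phosphatase subunit of that response, rose (378 and 387 RPKM in KL against 1147 and 1174 in KLG4). Sesn2 rose (1.63 and 2.42 RPKM in KL against 6.26 and 7.47 in KLG4), while Asns (10.9 and 10.1 RPKM in KL against 11.6 and 10.1 in KLG4) and Trib3 (2.72 and 3.24 RPKM in KL against 2.67 and 2.01 in KLG4), targets of Atf4, did not pass. Of 25 immediate early genes 8 rose and 2 fell (5 and 0 with KLG4 averaged, 24 higher and 0 lower on the epithelial scale), Fos among the latter (563 and 535 RPKM in KL against 323 and 331 in KLG4), and Jun (492 and 472 RPKM in KL against 556 and 557 in KLG4) and Egr1 (182 and 157 RPKM in KL against 175 and 176 in KLG4) were not called. In glycolysis and the hypoxia response 20 of 36 genes fell and 10 rose (2 and 5 with KLG4 averaged, 18 higher and 1 lower on the epithelial scale), median -0.55 and 0.52 on the epithelial scale. Car9, a carbonic anhydrase induced by hypoxia, was at 5.05 and 6.39 RPKM in KL against 0.959 and 1.42 in KLG4, Ldha at 170.0 and 129 RPKM in KL against 73.6 and 73.7 in KLG4 and Pgk1 at 92.2 and 72.2 RPKM in KL against 36.9 and 39.3 in KLG4. Slc2a3 and Hk3, the glucose transporter and hexokinase of leukocytes, rose (0.3204 and 0.881 RPKM in KL against 19.7 and 20.01 in KLG4 and 0.134 and 0.584 RPKM in KL against 5.77 and 5.46 in KLG4), whereas Slc2a1, the transporter of most epithelia, was at 22.6 and 15.7 RPKM in KL against 19.5 and 18.96 in KLG4. Of 22 genes of mitochondrial dynamics 5 fell and 0 rose (0 and 0 with KLG4 averaged, 10 higher and 0 lower on the epithelial scale), with Vdac1 at 38.2 and 34.9 RPKM in KL against 19.3 and 20.3 in KLG4. Enzymes that write or erase H3K4 methylation and H3 acetylation had 7 of 38 lower and 1 higher (0 and 0 with KLG4 averaged, 25 higher and 0 lower on the epithelial scale), Hdac4 (0.8601 and 1.27 RPKM in KL against 3.37 and 3.16 in KLG4), with Hdac2 lower (36.5 and 30.5 RPKM in KL against 17.6 and 17.3 in KLG4) and Kmt2d (1.72 and 2.999 RPKM in KL against 3.21 and 3.18 in KLG4) and Ep300 (2.28 and 4.299 RPKM in KL against 4.05 and 4.31 in KLG4) not called. Over all genes tested 19.6% were lower and 20.6% higher. Ddit3, Sesn2, Fos, Ldha, Pgk1, Vdac1, Hdac4 and Hdac2 were no longer called with the KLG4 libraries averaged.

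The changes were spread over the genome. Among chromosomes 1 to 19 and X, the median log2 fold change ran from -0.16 on chromosome 17 to 0.05 on chromosome 16, with -0.07 on chromosome 10, which carries Gpx4. Mitochondrially encoded genes had a median of 0.91, with 21 of 34 called higher and 4 lower.

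For some of the called genes the KLG4 tumor cell level can be set beside that of macrophages from the same series, in tables normalized apart and therefore without a test. Ptprc was at 31.1 to 74.5 RPKM in the 4 TRM libraries and 93.5 to 109.7 RPKM in the 4 MDM libraries, above the 26.7 and 27.4 RPKM of KLG4 tumor cells. Itgb2, a leukocyte integrin, was at 81.3 and 84.2 RPKM in KLG4 tumor cells and at 276 to 616 RPKM in TRMs. Dgat1 was at 38.3 and 39.6 RPKM in KLG4 tumor cells, 5.53 to 24.7 RPKM in TRMs and 37.0 to 57.7 RPKM in MDMs. Slc7a11 was at 24.6 and 25.8 RPKM, against 5.26 to 9.48 RPKM in TRMs and 53.1 to 61.1 RPKM in MDMs. Apoe was at 441 and 446 RPKM, within its span of 323 to 542 RPKM in TRMs. Scgb1a1 was at 6332 and 6483 RPKM in KLG4 tumor cells and at most at 83.0 RPKM in a macrophage library. The increases near Gpx4 were also seen in macrophages. Sbno2 was at 8.12 and 13.8 RPKM in KL against 54.5 and 52.2 in KLG4 in TRMs. In MDMs Sbno2 was at 69.3 and 67.8 RPKM in KL against 347 and 333 in KLG4. Stk11 was at 21.5 and 23.3 RPKM in KL against 42.5 and 40.0 in KLG4 in TRMs. In MDMs Stk11 was at 62.3 and 72.6 RPKM in KL against 203 and 177 in KLG4.

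**Figure D5:**
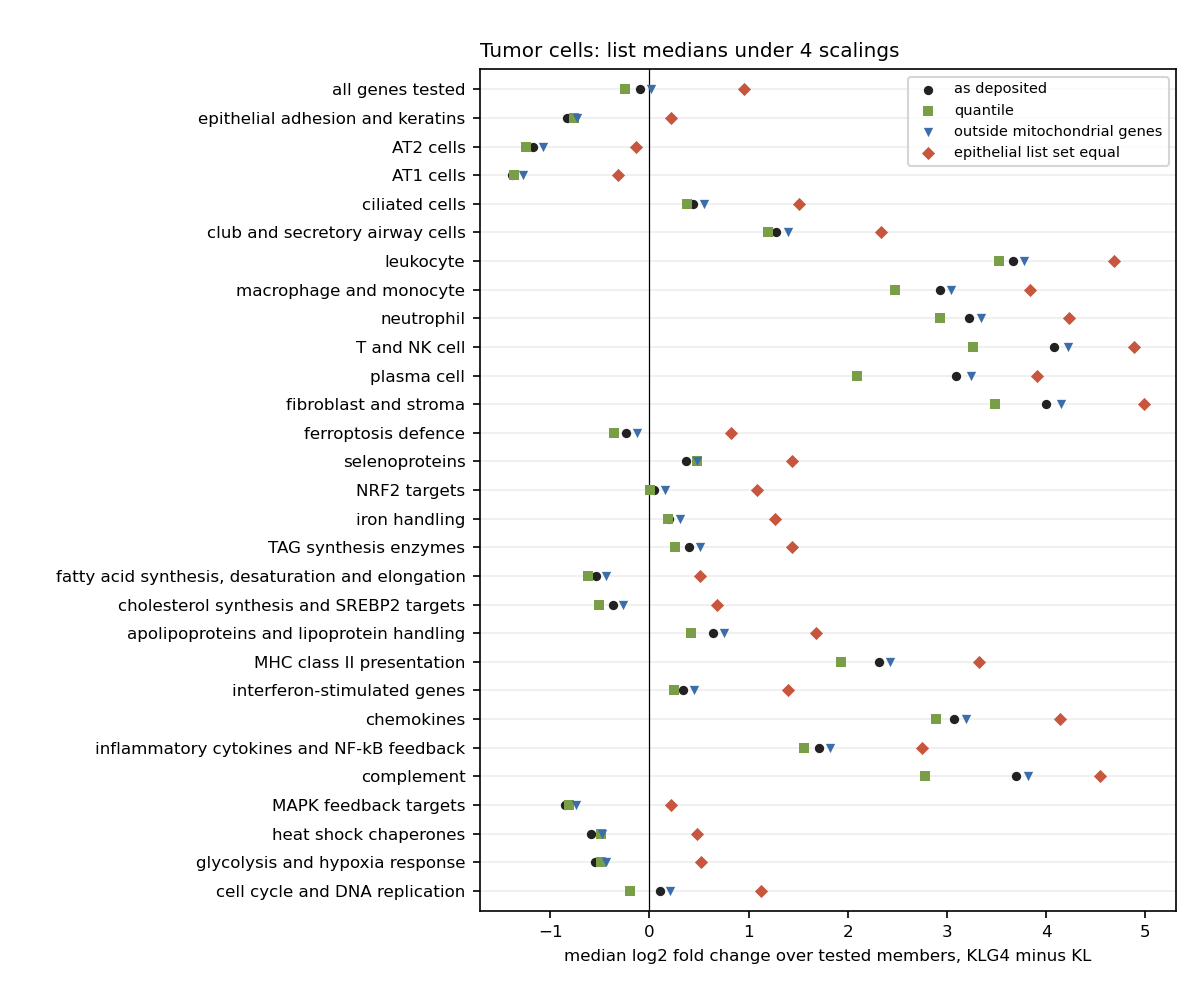
Median log2 fold change, KLG4 minus KL, over the tested members of each list and over all genes, under 4 scalings of the libraries: as deposited, quantile, relative to reads outside mitochondrial genes, and with the epithelial adhesion and keratin genes set equal. The leukocyte, stroma, chemokine, complement and secretory lists lie above 0 and the AT1 and AT2 lists below 0 under all 4, whereas the fatty acid synthesis, cholesterol, MAPK feedback, heat shock and glycolysis medians are below 0 under 3 and above 0 on the epithelial scale.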

How the data were processed

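RNA from sorted tumor cells was sequenced as poly(A), non-directional, paired-end libraries. The authors trimmed reads with Trim Galore 0.6.4, aligned them with HISAT2 2.0.5 and counted them with featureCounts 2.0.0, per the labels and the study's methods, and deposited RPKM values per gene for each library. The deposited table also holds the authors' fold change and p columns, which were not used. Every value column used was mapped to a sample by its name, and the other 13 samples entered no test.

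Genes at 1 RPKM or more in at least 2 of the 4 libraries were tested on log2(RPKM + 0.1) with limma 3.58.1 in R 4.3.3, 2 KL against 2 KLG4 libraries, with a trended prior variance and Benjamini-Hochberg adjustment over all 13770 genes; fold changes on this scale understate those of low genes. The call was an adjusted p under 0.05. RPKM steps gave whole reads for 100% of the values checked (within 0.05 read, up to 2000 reads), from which the depths were computed; counting error is therefore larger in KLG4. The script was tested on simulated data.

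The gene lists and the comparison were chosen with earlier results of these data known. Genes named outside the lists were the 12 largest increases and 12 largest decreases among called genes without overlap between groups and with a mean of at least 10 RPKM in the higher group, and the 12 largest such increases among genes whose KL level lay above every macrophage library; predicted models, pseudogenes, immunoglobulin and T cell receptor segments, small RNAs and mitochondrially encoded genes were left out. Genes near Gpx4, of the sort gate and named by the study for TAG synthesis were added, as were Xist and Eif2s3y, chosen after their values were seen. Same-numbered libraries were no more alike than others (correlation of deviations 0.019), and the numbers do not pair them. In all, 16 alternatives were computed. Promoter sequences are from RefSeq (GRCm38.p6). Some items are not reported here.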

Additional observations from a re-analysis of the deposited data

How the results depend on the processing

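The count of 5543 called genes stayed within 1.5 times of that under 11 of 16 alternatives. It was 3284 with a mean of at least 5 RPKM, which tests fewer genes, 9318 on the epithelial scale and 1923 with the KLG4 libraries averaged into 1 sample. Leaving out 1 library gave 1927 to 7372, the lowest without KLG4 replicate 2; it was 1990 without KLG4 replicate 1, 6697 without KL replicate 1 and 7372 without KL replicate 2, where the lone library is assumed to vary like the other group. With the replicate number as a replicate block 5388 genes were called, and the numbers do not pair the libraries. Of 54 gene lists 34 had a median above 0, and 52 on the epithelial scale, by the construction of that scale; the other alternatives gave 26 to 37. limma-voom on the recovered reads called 5335 genes. The share of called genes that were higher was 51.3%, and 38.5% under quantile scaling, 39.9% with the mean filter, 61.1% relative to reads outside mitochondrial genes, 97.3% on the epithelial scale and 82.2% with KLG4 averaged. Of the named called genes, 107 were not called with KLG4 averaged, 69 on the epithelial scale and 4 with the replicate block; on the epithelial scale 47 turned sign, and 8 of these were called in the other direction. The 8 genes were Far1, Fdft1, Foxa2, Gpx4, Hmgcs1, Hsp90ab1, Hsph1 and Il33. The KLG4 libraries, with fewer reads, limit what low genes can show.

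Signs of small changes depended on the scale; the cause was not tested beyond the scaling itself. With TMM scaling the log2 fold changes that turned sign were 0.062 for Abca7, 0.028 for Cebpa, 0.026 for Dusp4 and 0.028 for Sox9. With quantile scaling the log2 fold changes that turned sign were -0.004 for Asns, -0.058 for Cav1, 0.016 for Cxcl16, 0.001 for Dusp4, 0.031 for Hp, -0.019 for Hsf1, -0.19 for Mcm2, -0.45 for Nqo1, -0.12 for Oas1a and -0.18 for Pstk. Scaled to the non-mitochondrial reads the log2 fold changes that turned sign were 0.11 for Abca7, 0.028 for Aifm2, 0.074 for Cebpa, 0.032 for Cpt1a, 0.032 for Cxcl16, 0.072 for Dusp4, 0.045 for Eif2s3y, 0.016 for Kit and 0.073 for Sox9. With limma-voom on the recovered reads the log2 fold changes that turned sign were 0.069 for Abca7, 0.029 for Cebpa, 0.026 for Dusp4, 0.001 for Eif2s3y and 0.027 for Sox9. On the epithelial scale the log2 fold changes that turned sign were 1.04 for Abca7, 0.40 for Acadl, 0.50 for Acly, 0.13 for Aco1, 0.48 for Acsl4, 0.28 for Acsl5, 0.10 for Agpat2, 0.96 for Aifm2, 0.89 for Atf4, 0.17 for Ccna2, 0.064 for Ccnd1, 0.22 for Cdh1, 1.03 for Cebpa, 0.088 for Cfi, 0.42 for Cidea, 0.11 for Clu, 0.98 for Cpt1a, 0.34 for Cxcl15, 0.99 for Cxcl16, 0.53 for Cyp51, 1.03 for Dusp4, 0.84 for Eefsec, 0.99 for Eif2s3y, 0.26 for Elovl5, 0.52 for Far1, 0.51 for Fasn, 0.57 for Fdft1, 0.59 for Fdps, 0.16 for Flt1, 0.33 for Fos, 0.69 for Fosl1, 0.51 for Foxa2, 0.48 for Gclc, 0.86 for Gclm, 0.14 for Gnpat, 0.57 for Gpat4, 0.54 for Gpx4, 0.79 for Gss, 0.14 for Hdac2, 0.56 for Hmgcs1, 0.46 for Hnf4a, 0.96 for Hp, 0.41 for Hsp90ab1, 0.077 for Hspa1a, 0.098 for Hspe1, 0.59 for Hsph1, 0.49 for Idi1, 0.54 for Il33, 0.92 for Kit, 0.10 for Krt19, 0.16 for Krt8, 0.067 for Ldha, 0.36 for Lpcat3, 0.32 for Mmp14, 0.42 for Msln, 0.27 for Msmo1, 0.22 for Nt5e, 0.57 for Nupr1, 0.81 for Plin2, 0.86 for Pnpla2, 0.41 for Polr2e, 0.31 for Prdx2, 0.25 for Prdx3, 0.83 for Prkaa1, 0.48 for Scd2, 0.42 for Selenow, 0.63 for Sepsecs, 0.55 for Sod1, 1.02 for Sox9, 0.27 for Tfrc, 0.69 for Trib3, 0.75 for Trnau1ap, 0.19 for Vdac1, 0.53 for Wdr18 and 0.75 for Xist. Leaving out 1 library in turn, those that turned sign ranged from -0.24 to 0.24 for Abca7, -0.24 to 0.077 for Aifm2, -0.057 to 0.14 for Asns, -0.43 to 0.068 for Atf4, -0.11 to 0.034 for Cebpa, -0.29 to 0.13 for Cpt1a, -0.26 to 0.095 for Cxcl16, -0.064 to 0.30 for Cxcl17, -0.12 to 0.034 for Dusp4, -0.043 to 1.05 for Dusp5, -0.054 to 0.16 for Egr1, -0.24 to 0.11 for Eif2s3y, -0.041 to 0.84 for Ep300, -0.17 to 0.21 for Foxj1, -0.12 to 0.29 for Hsf1, -0.31 to 0.13 for Kit, -0.013 to 0.52 for Ltf, -0.13 to 0.15 for Mcm2, -0.17 to 0.27 for Nqo1, -0.030 to 0.084 for Oas1a, -0.23 to 0.29 for Slc2a1, -0.040 to 0.073 for Slc3a2 and -0.10 to 0.026 for Sox9.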
